A study of Mus musculus with 16 samples.

Results

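The genes of the endogenous opioid system were followed across the hippocampus of mice in which the transcription factor CREB was either driven or blocked. The members were the 7 genes Pdyn, Penk, Pnoc, Oprk1, Oprm1, Oprd1 and Oprl1, taken by symbol as the opioid peptide precursors and the opioid receptors, and the array carried 13 probe sets for them among its 45037 probe sets for 18193 genes. Of the 7 genes, 5 had a probe set above the overall median intensity of 99.1 on at least 2 arrays, the filter used before testing. These were Pdyn, Penk, Pnoc, Oprk1 and Oprl1, with 7 of the 13 probe sets. Oprm1, Oprd1 and a second Oprk1 probe set did not reach that intensity on any array.

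RNA of 16 hippocampal pools was hybridised to 1 Affymetrix mouse whole-genome expression array each, and a pool combined 3 to 4 mice alike in age, sex and genotype. VP16-CREB, CREB joined to a viral activation domain, was carried as tetO-VP16-CREB on C57BL/6J, and expression begins when doxycycline (dox) is withdrawn. The groups were VP16-CREB mice at 3 weeks off dox (3 pools, 6 weeks old) with wild-type littermates (3 pools), VP16-CREB mice at 1 week off dox (2 pools, 3 weeks old) with wild-type littermates (2 pools), and A-CREB mice (TetO-A-CREB-95, C57BL6 F1/J, 3 pools, 6 weeks old) with wild-type littermates (3 pools). Littermates in the VP16-CREB cohorts had been raised on dox and taken off it like the transgenic mice, and both groups of the A-CREB cohort were raised without it. A-CREB is a dominant negative protein that pairs with CREB and keeps it from DNA. The mice are described as bitransgenic, and the driver of the tetO promoter is not given in the sources used here. The strain field reads C57BL/6J for all groups, and the F1 wording for the A-CREB mice is from their genotype field. Replicates are pools, so the SDs given are between pools and not between single mice. Early A-CREB pools were not analysed here.

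Opioid peptides are cut from large precursors. Prodynorphin gives the dynorphins, which act mainly at the kappa receptor, proenkephalin gives the enkephalins, which act at the delta and mu receptors, and pronociceptin gives nociceptin, the ligand of the nociceptin receptor. All of these receptors couple to inhibitory G proteins, which lower cyclic AMP and open potassium channels. In the hippocampus dynorphin is stored in the mossy fibres of dentate granule cells, and Pdyn is a known target of CREB in the brain.

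Arrays hybridised with the 3-week cohort stood apart, with median intensities of 118.9 to 129.3 against 75.0 to 93.2 on the remaining 10, and all tests therefore set transgenic pools against the littermates of their cohort. Xist was 63.4 in replicate 1 of the A-CREB pools and 34.5 in replicate 1 of their littermates, against 3611 to 6231 on the other 14 arrays. Actin probe sets gave a 3' to 5' ratio, a sign of RNA quality, of 1.36 to 1.61 on the 3-week arrays and up to 2.48 elsewhere (replicate 3 of the A-CREB pools). The Creb1 probe set 1421582_a_at had 1167 ± 87.7 in VP16-CREB pools at 3 weeks against 53.6 ± 18.7 in littermates (SD, n = 3 each), and 863 ± 181 against 20.9 ± 21.9 at 1 week (n = 2 each). In A-CREB pools it had 41.7 ± 28.7 against 55.8 ± 27.9 in littermates (n = 3 each). Creb1 probe sets differed, and only 1452529_a_at was also called higher at both times (487 ± 126 against 90.8 ± 5.08 at 3 weeks). At 3 weeks 1452901_at had 1471 ± 241 in VP16-CREB pools against 1611 ± 339, and 1428755_at 966 ± 160 against 1124 ± 174. These 2 and 1423402_at did not pass the test at either time. Whether 1421582_a_at or 1452529_a_at reads the transgene was not tested.

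Pdyn, the prodynorphin gene (chr2:129686549-129699938, GRCm38), had the largest difference of the 7 tested member probe sets in each transgene comparison. Its intensity was several times higher in VP16-CREB pools at both times, and its lowest values of the series were those of the A-CREB pools. A single probe set, 1416266_at, reads it. The 250 bases upstream of its annotated start are shown because this is the one member whose difference passed the test, with those of Pcsk1, a convertase gene described further on, for contrast (RefSeq, GRCm38.p6, both 5' to 3' on the gene's strand, Pdyn from chr2:129699939-129700188 on the minus strand and Pcsk1 from chr13:75089607-75089856 on the plus strand). Capitals mark matches to the CREB motif TGACGTCA or to its core TGACG on either strand. The Pcsk1 window lies at one of that gene's transcript starts and was chosen after its values and motif had been seen.
Pdyn: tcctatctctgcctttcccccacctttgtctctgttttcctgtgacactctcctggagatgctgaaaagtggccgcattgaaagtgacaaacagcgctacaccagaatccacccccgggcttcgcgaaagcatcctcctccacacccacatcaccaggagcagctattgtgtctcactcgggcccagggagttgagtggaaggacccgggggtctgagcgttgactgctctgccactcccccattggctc
Pcsk1: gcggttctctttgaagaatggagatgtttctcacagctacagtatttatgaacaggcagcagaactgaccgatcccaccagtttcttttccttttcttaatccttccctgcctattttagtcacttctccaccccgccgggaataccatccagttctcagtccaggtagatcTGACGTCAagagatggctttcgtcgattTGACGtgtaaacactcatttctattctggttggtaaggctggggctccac

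The Pdyn window held no match to the full motif or its core. In the Pcsk1 window the full motif lay 78 to 71 bases upstream of the transcript start, with 3 core matches, 2 of them inside the full motif. Promoters of 4 of the 7 members were in the table used (Pdyn, Oprm1, Oprd1 and Oprl1, 9 windows). Of those 9 windows, 0 held TGACGTCA, 0 held TGACG and 0 held the AP-1 motif TGANTCA, against 1.55%, 17.8% and 6.75% of 32851 windows of the same length. These counts describe the letters in the windows and nothing else. Penk, Pnoc and Oprk1 are named only.

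At 3 weeks off dox, the Pdyn intensities were 1245, 1029 and 1195 in the VP16-CREB pools, against 149, 146 and 107 in littermates. The lowest VP16-CREB pool was thus several times the highest littermate pool. Means were 1156 ± 113 in VP16-CREB pools and 134 ± 23.7 in littermates (SD, n = 3 each), an 8.16-fold difference of the intensity plus 10 (log2 difference 3.03, 95% interval 2.63 to 3.43, adjusted p = 1.43e-06). Pdyn was the 6th probe set by p and the 45th by size of the rise.

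At 1 week off dox, Pdyn had intensities of 818 and 1154 in the VP16-CREB pools, against 158 and 121 in littermates. Both VP16-CREB pools lay far above both littermate pools. The means were 986 ± 237 and 139 ± 26.5 (SD, n = 2 each), a 6.62-fold difference (log2 2.73, 95% interval 2.24 to 3.22, adjusted p = 0.000138). Among the 27044 probe sets tested, Pdyn was the 3rd by p and the 14th by size of the rise. When the fit held the 4 arrays of this cohort alone, the difference stayed 2.73 and the adjusted p was 0.146, with 0 of 27044 probe sets called by limma in that fit and 1284 at an unadjusted p under 0.05.

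The rise in Pdyn was thus present at both times. The effect at 3 weeks minus the effect at 1 week was 0.30 log2 (SE 0.29, 95% interval -0.33 to 0.94), which did not pass the test. That interval covers a later effect somewhat smaller than the earlier one as well as one nearly 1 log2 unit larger. With single pools left out the value ran from 0.06 (without VP16-CREB replicate 1 of the 1-week cohort) to 0.55 (without replicate 2), it was 0.12 without replicate 1 and 0.48 without replicate 2 of the 1-week littermates and 0.16 without replicate 3 of the 3-week littermates, and quantile normalization gave 0.77. None of these passed the test. Time off dox, age (6 against 3 weeks) and the difference in array medians between these cohorts cannot be told apart here.

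In the A-CREB cohort, Pdyn had 103, 75.2 and 82.8 in A-CREB pools, against 141, 117 and 121 in littermates. All 3 A-CREB pools were below all 3 littermate pools. Averages were 87.1 ± 14.5 in A-CREB pools and 126 ± 12.9 in littermates (SD, n = 3 each), a log2 difference of -0.50 (95% interval -0.90 to -0.10). The unadjusted p from limma was 0.0188 and the adjusted p 1.0, so the difference did not pass the test. Without replicate 1 of both groups, the pools that stood apart by Xist, it was -0.54 with an adjusted p of 0.756. These A-CREB intensities lie around the overall median of 99.1, where a mismatch-corrected signal is noisy.

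The effects of both transgenes on Pdyn differed from each other. The VP16-CREB effect at 3 weeks minus the A-CREB effect was 3.53 log2 (SE 0.26, 95% interval 2.96 to 4.09, adjusted p = 5.07e-05), the 2nd of the 27044 probe sets by p. Ordered from high to low, the group means ran from VP16-CREB at 3 weeks and at 1 week, whose pools overlapped, to the littermates at 1 week, at 3 weeks and of the A-CREB cohort, whose ranges overlapped in that order. Gaps without overlap separated the VP16-CREB groups from the littermates and the littermates from the A-CREB pools. The lower gap was small, from 103 in an A-CREB pool to 107 in a 3-week littermate pool. Array medians differed between those cohorts, so this order carries no test.

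**Figure D1:**
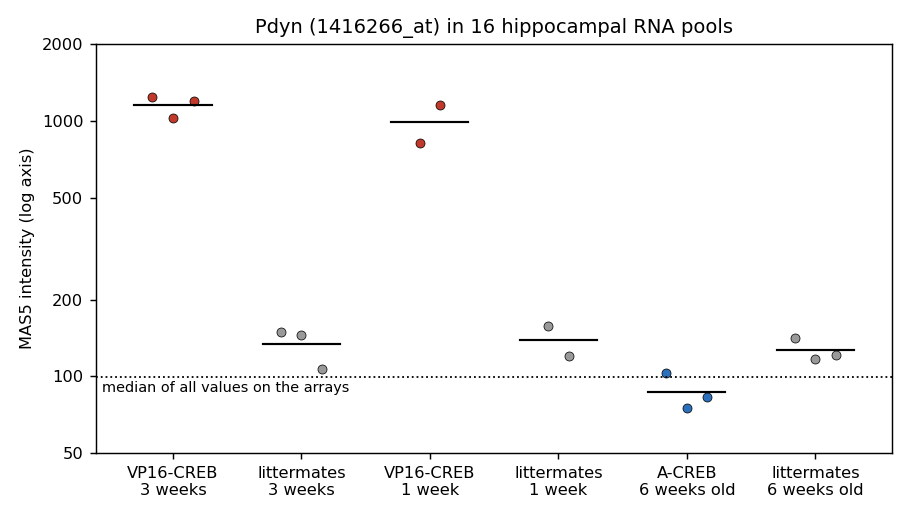
Pdyn intensity (MAS5, log axis) in each of the 16 RNA pools by group, with points for pools, bars for group means and a dotted line at the median of all values (99.1). The 5 VP16-CREB pools sit between 818 and 1245, the 8 littermate pools between 107 and 158, and the 3 A-CREB pools between 75.2 and 103.

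Markers of the cells that store dynorphin moved the other way at 3 weeks. The summed intensity of 8 dentate granule cell markers was 3886 to 5172 in VP16-CREB pools against 9386 to 9715 in littermates, and 7 of the 8 fell. Prox1, the transcription factor of granule cells, had 162 ± 13.5 against 384 ± 24.99 (log2 -1.20, adjusted p = 0.000268), while Tdo2 was the marker not called. At 1 week the sum was 7683 to 7726 in VP16-CREB pools against 9310 to 10240 in littermates, with 0 of 8 called by limma and 3 lower at an unadjusted p under 0.05. In the A-CREB cohort it was 7542 to 9865 against 7613 to 9855, with 0 of 8 called and 2 lower at an unadjusted p under 0.05. In such bulk RNA, fewer cells of a type and less RNA per cell cannot be told apart. Pdyn rose beside this fall, and the part of these cells in the Pdyn values was not tested.

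Markers of other cell types gave the following sums. Bright markers weigh most in a sum of intensities, here and for the granule cells. Over the 16 arrays the astrocyte marker Gfap alone ran from 1611 to 16756, and the granule cell marker Calb1 from 2610 to 6936. The 8 microglial markers summed to 22284 to 27096 in VP16-CREB pools at 3 weeks against 7881 to 7922 in littermates (7 of 8 rose). At 1 week the microglial sum was 13977 to 17127 against 8501 to 12245 (0 of 8 called by limma and 5 higher at an unadjusted p under 0.05). The 7 astrocyte markers summed to 53893 to 66191 against 38822 to 46119 at 3 weeks (2 of 7 rose) and to 45455 to 56440 against 39809 to 40641 at 1 week (1 of 7 rose). The 8 measured markers of CA1 and CA3 pyramidal cells summed to 15625 to 16133 against 21023 to 22544 at 3 weeks (1 of 8 fell) and to 15784 to 18461 against 19768 to 21796 at 1 week (0 of 8 called by limma and 0 at an unadjusted p under 0.05). The 12 measured interneuron markers summed to 43500 to 50299 against 37869 to 42970 at 3 weeks (2 of 12 rose) and to 37517 to 38460 against 35334 to 36444 at 1 week (0 of 12 called by limma and 2 higher at an unadjusted p under 0.05). In the A-CREB cohort the ranges of the microglial, astrocyte, pyramidal and interneuron sums overlapped between A-CREB pools and littermates. No marker of these types was called there by limma. At an unadjusted p under 0.05, 2 of 8 microglial markers were higher and 2 of 8 pyramidal markers lower in A-CREB pools. Their part in the opioid values was not tested. Striatum, another forebrain tissue, rich in Pdyn and Penk, was followed by 7 measured markers, whose sum was 3178 to 4903 in VP16-CREB pools against 3378 to 4335 in littermates at 3 weeks and 2606 to 4380 against 3644 to 4177 at 1 week. These ranges overlapped and 0 of the 6 tested striatal markers were called by limma at either time. In the A-CREB cohort the striatal sum was 4107 to 4341 in A-CREB pools against 3696 to 4024 in littermates, without overlap. There too 0 of 6 were called by limma, and 0 had an unadjusted p under 0.05. The part of striatal tissue in the opioid values was not tested. The striatal marker Drd2 stayed at 54.0 to 127.3 over all 16 arrays, and no striatal marker was at 0.

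Penk, the proenkephalin gene (chr4:4133536-4138815, probe set 1427038_at), had lower means in each transgenic group than in its littermates. At 3 weeks the intensities were 423, 552 and 393 in VP16-CREB pools, against 633, 667 and 640 in littermates. Those at 1 week were 507 and 487 in VP16-CREB pools, against 695 and 607 in littermates. A-CREB pools had 463, 437 and 455, against 692, 435 and 828 in littermates. VP16-CREB pools lay below all of their littermates at both times, whereas the A-CREB pools overlapped theirs through 1 low littermate pool. That pool, replicate 2, had sums of thalamic markers of 4529 (2898 and 2694 in the other littermate pools) and of hypothalamic markers of 1140 (606 and 620). Its granule cell sum (7613) and pyramidal cell sum (16912) were the lowest of its group. The part of this in its Penk value was not tested.

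No Penk difference passed the test in the fit over all arrays. At 3 weeks it was -0.51 log2 (95% interval -0.94 to -0.07, adjusted p = 0.255), with means of 456 ± 84.6 in VP16-CREB pools and 647 ± 17.8 in littermates (SD, n = 3 each). With weights for array quality this value was -0.46 and passed the test (adjusted p = 0.0376). Those weights called 4137 of the 27044 probe sets at 3 weeks, against 1062 in the fit over all arrays without weights. The 1-week difference was -0.38 log2 (95% interval -0.91 to 0.15, adjusted p = 0.9996), with means of 497 ± 13.9 and 651 ± 62.5 (n = 2 each). The A-CREB difference was -0.47 log2 (95% interval -0.91 to -0.04, adjusted p = 1.0), with means of 452 ± 13.4 in A-CREB pools and 652 ± 200 in littermates (n = 3 each). It was -0.73 without replicate 2 of the littermates and -0.28 without their replicate 3, and passed the test in neither case. The VP16-CREB effect at 3 weeks minus the A-CREB effect was -0.04 log2 for Penk (95% interval -0.65 to 0.58), an interval that spans effects of either sign. Ordered by mean, the littermate groups of the A-CREB, 1-week and 3-week cohorts came first, followed by VP16-CREB at 1 week, VP16-CREB at 3 weeks and A-CREB. Neighbours in that order overlapped, except littermates at 3 weeks and VP16-CREB pools at 1 week.

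Pnoc, the pronociceptin gene (chr14:65400673-65425564, probe set 1425892_a_at), varied little. Its intensities at 3 weeks were 760, 594 and 605 in VP16-CREB pools, against 548, 566 and 503 in littermates. At 1 week they were 602 and 535 in VP16-CREB pools, against 562 and 496 in littermates. A-CREB pools had 553, 535 and 371, against 580, 529 and 401 in littermates. The VP16-CREB pools at 3 weeks lay above their littermates by a small margin, and the other pairs of groups overlapped. The log2 differences were 0.26 (95% interval -0.13 to 0.66) at 3 weeks, 0.10 (-0.38 to 0.59) at 1 week and -0.05 (-0.45 to 0.34) for A-CREB, and none passed the test. Ordered from high to low, every group overlapped the next. The low values of the A-CREB cohort were both those of replicate 3.

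**Figure D2:**
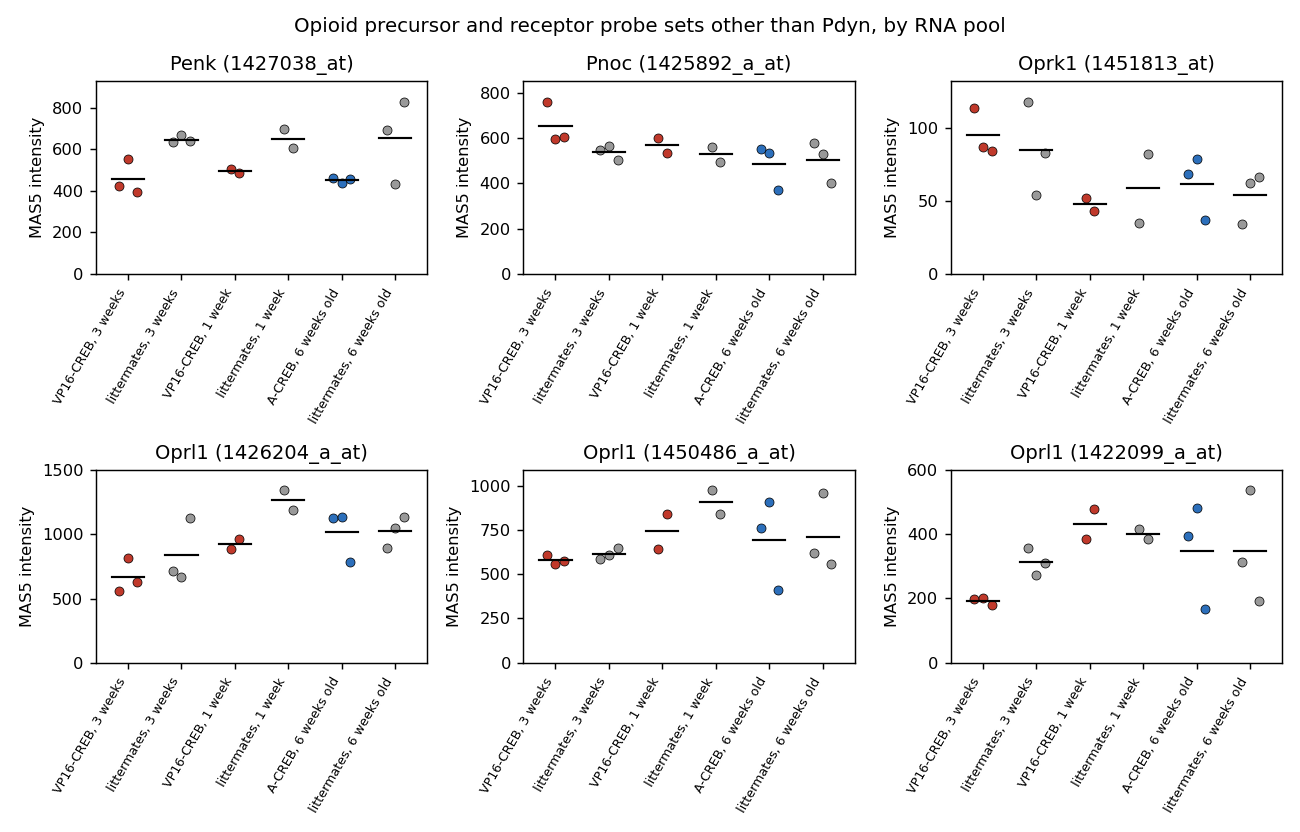
MAS5 intensity (linear axis) of the 6 other member probe sets past the filter in each of the 16 RNA pools by group, with points for pools and bars for group means. Penk lies lower in the VP16-CREB pools than in their littermates at both times, and the Oprl1 probe set 1422099_a_at lies lower in VP16-CREB pools at 3 weeks (180 to 200.2) than in littermates (274 to 356).

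Oprk1 encodes the kappa receptor, at which dynorphins act (chr1:5588450-5606134). Its brighter probe set, 1451813_at, was between 34.0 and 117.8 on the 16 arrays and above the overall median on 2 of them. It had 113.8, 86.9 and 84.4 in VP16-CREB pools at 3 weeks, against 117.8, 54.4 and 82.9 in littermates. At 1 week it had 52.1 and 43.1 in VP16-CREB pools, against 35.1 and 82.3 in littermates. In the A-CREB cohort the values were 68.6, 78.4 and 37.0 in A-CREB pools, against 34.0, 62.0 and 66.3 in littermates. All 3 pairs of groups overlapped, and the log2 differences of 0.19 at 3 weeks, -0.17 at 1 week and 0.14 for A-CREB had 95% intervals of -0.52 to 0.90, -1.04 to 0.71 and -0.57 to 0.86. None passed the test, and changes of Oprk1 of either sign within these intervals are compatible with the values. Its second probe set, 1446394_at, had 1.60 to 60.2.

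Oprl1 encodes the nociceptin receptor (chr2:181715000-181720985) and was read by 3 probe sets, all above the overall median on all 16 arrays. The probe set 1422099_a_at had 198, 200.2 and 180 in VP16-CREB pools at 3 weeks, against 356, 274 and 309 in littermates. At 1 week it had 384 and 478 in VP16-CREB pools, against 415 and 384 in littermates. In the A-CREB cohort it had 394, 483 and 168 in A-CREB pools, against 314, 536 and 191 in littermates. The 3-week VP16-CREB pools lay below their littermates without overlap, and the low pool of each A-CREB cohort group was again replicate 3.

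The difference of this probe set at 3 weeks was -0.67 log2 (193 ± 10.9 in VP16-CREB pools and 313 ± 41.3 in littermates, SD, n = 3 each, 95% interval -1.44 to 0.11), which did not pass the test (adjusted p = 0.480). It passed when the fit held the 6 arrays of the cohort alone (-0.67, adjusted p = 0.0350) and with weights for array quality (-0.74, adjusted p = 0.0195). These settings called 1467 and 4137 of the 27044 probe sets at 3 weeks, against 1062 in the fit reported. The other Oprl1 probe sets gave smaller differences at 3 weeks, -0.30 for 1426204_a_at and -0.08 for 1450486_a_at, with overlapping pools. At 1 week the 3 probe sets disagreed in sign, with -0.45 for 1426204_a_at (889 and 963 in VP16-CREB pools against 1342 and 1193 in littermates, no overlap), -0.29 for 1450486_a_at and 0.10 for 1422099_a_at. For A-CREB the 3 values were -0.03, -0.07 and -0.00. No Oprl1 difference passed the test in the fit over all arrays.

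Oprm1, the gene of the mu receptor (chr10:6758593-7038209), and Oprd1, that of the delta receptor (chr4:132110188-132144486), encode receptors for enkephalins. The 4 Oprm1 probe sets ranged from 3.29 to 67.2 and the Oprd1 probe set from 9.09 to 56.8, so every value lay below the overall median of 99.1. No level of either receptor is drawn from signals this low. Without the filter on low values, no probe set of either gene was called in any comparison, and the adjusted p was at least 0.516. That does not show that these receptors were unchanged or not expressed.

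**Figure D3:**
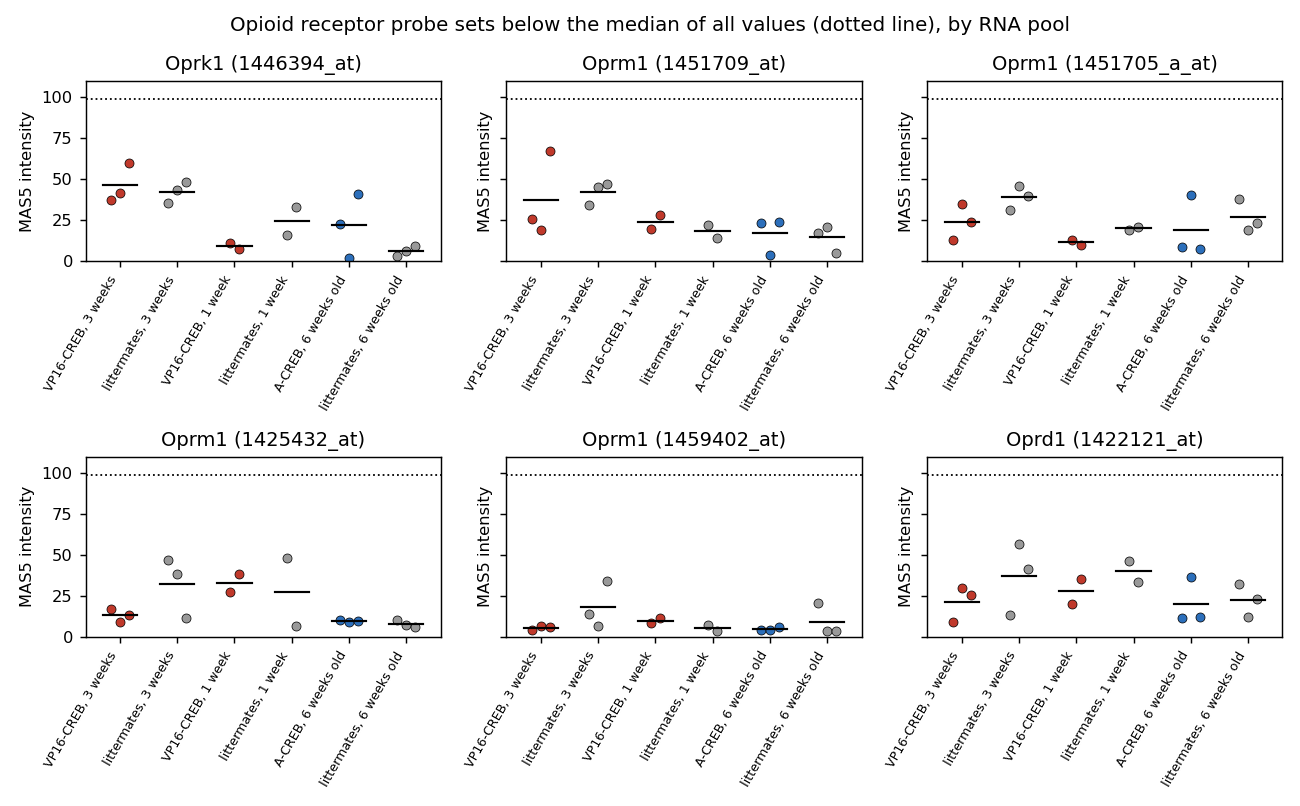
MAS5 intensity (linear axis) of the 6 receptor probe sets that did not pass the filter, in each of the 16 RNA pools by group, with points for pools, bars for group means and a dotted line at the median of all values (99.1). Oprm1, Oprd1 and the second Oprk1 probe set stay below that line on every array, between 1.60 and 67.2.

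Counted over the 7 member probe sets tested, Pdyn was the 1 that rose at 3 weeks of VP16-CREB and 0 fell, where 3.28% of the 27044 probe sets rose and 0.651% fell. At 1 week Pdyn again was the 1 that rose and 0 fell, where 0.218% of probe sets rose and 0.0185% fell. For A-CREB, 0 of 7 rose and 0 of 7 fell by limma, where 0% of probe sets rose and 0% fell. In the A-CREB comparison 1171 probe sets (4.33%) had an unadjusted p under 0.05 by limma, among them Pdyn and Penk. A share near this one would arise with no effect at any probe set. Of the effects at 3 weeks minus those at 1 week, 0 of 7 passed the test, where 0% of probe sets had a higher later effect and 0.0037% a lower one. Of the VP16-CREB effects at 3 weeks minus the A-CREB effects, 1 of 7 was higher (Pdyn) and 0 lower, where 0.828% were higher and 0.0592% lower.

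Pools of both groups did not overlap at 2 member probe sets that were higher in VP16-CREB pools at 3 weeks (Pdyn and Pnoc) and 2 that were lower (Penk and Oprl1 1422099_a_at), where 14.9% of the 27044 probe sets were higher and 12.8% lower without overlap. At 1 week it was 1 higher (Pdyn) and 2 lower (Penk and Oprl1 1426204_a_at), where 15.7% were higher and 12.9% lower. For A-CREB it was 0 higher and 1 lower (Pdyn), where 3.54% were higher and 3.28% lower. With 2 or 3 pools a group, such gaps were common over the whole array in the VP16-CREB comparisons.

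**Figure D4:**
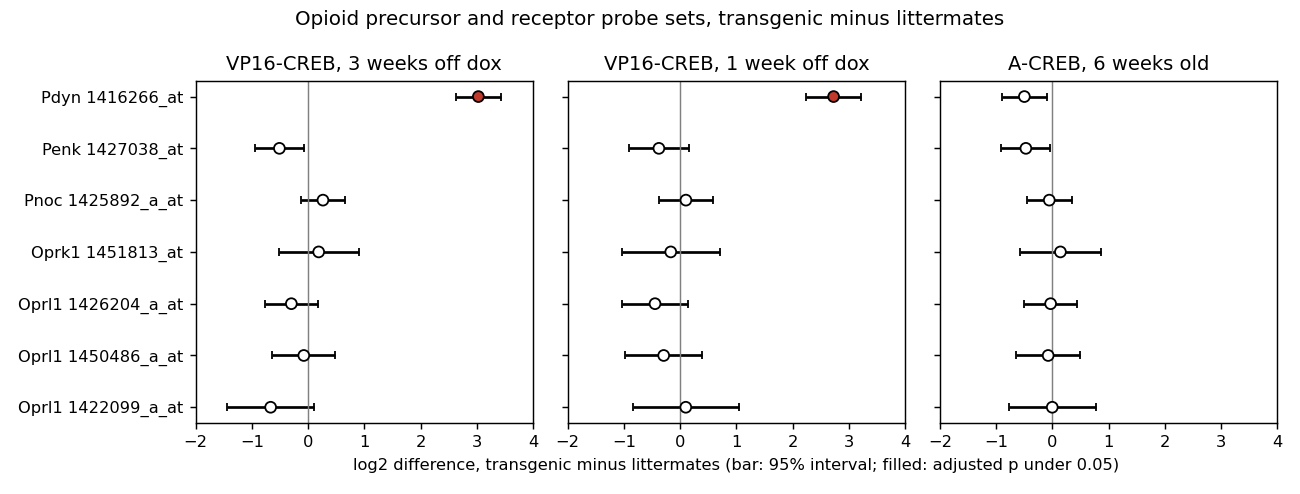
Log2 difference of the 7 tested member probe sets, transgenic minus littermates, for VP16-CREB at 3 weeks, VP16-CREB at 1 week and A-CREB, with bars for the 95% interval and filled points where the adjusted p was under 0.05. Pdyn at 3.03 and 2.73 is the filled point in both VP16-CREB comparisons, and no point is filled for A-CREB.

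Some proteases that cut neuropeptide precursors rose with VP16-CREB at 3 weeks. Of 11 listed genes of propeptide processing, 10 were measured, and the convertase gene Pcsk2 was not among these 10. Of the 10, 3 rose and 0 fell at 3 weeks (median log2 difference 0.13), where 4.59% of 12732 genes rose and 0.864% fell (median -0.00). At an unadjusted p under 0.05 by limma, 4 were higher and 1 lower. The lower gene was Pcsk5, another convertase, with 222 ± 62.2 in VP16-CREB pools against 386 ± 55.0 in littermates (log2 -0.80). It differed by -0.62 at 1 week, and passed the test at neither time. Pcsk1, the prohormone convertase that makes the first cuts in the precursors, had 291 ± 24.9 in VP16-CREB pools against 118 ± 29.9 in littermates (SD, n = 3 each, log2 1.27, SE 0.27, adjusted p = 0.0174). Ctsl, the gene of cathepsin L, which also cuts neuropeptide precursors and is abundant in lysosomes, had 8492 ± 809 against 3847 ± 356 (log2 1.14, adjusted p = 0.000653). Pcsk6, a convertase of the secretory pathway, had 548 ± 39.9 against 326 ± 21.8 (log2 0.73, adjusted p = 0.0421). The microglial sum given above was also higher at 3 weeks, and its part in the values of these genes was not tested.

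At 1 week 0 of the 10 processing genes passed the test by limma and 1 was higher at an unadjusted p under 0.05, where 0.298% of genes rose and 0.00785% fell. That gene was Pcsk1, with 306 ± 25.1 in VP16-CREB pools against 111 ± 31.4 in littermates (SD, n = 2 each, log2 1.41, adjusted p = 0.1601). In A-CREB pools 0 of the 10 were called by limma or had an unadjusted p under 0.05, and Pcsk1 had 155 ± 47.0 against 153 ± 56.5 (n = 3 each). Cpe, the carboxypeptidase that removes basic residues after the cuts, differed by -0.04, 0.25 and 0.02 log2 at 3 weeks, at 1 week and in A-CREB pools, and Pcsk1n, which encodes an inhibitor of the Pcsk1 convertase, by 0.05, -0.11 and -0.19. None of these passed the test.

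Genes of peptidases that break opioid peptides down showed no called change. Of 10 measured, 0 passed the test in any of the 3 comparisons by limma, and 1, 0 and 0 had an unadjusted p under 0.05 at 3 weeks, at 1 week and in A-CREB pools. The median differences were 0.02, -0.07 and -0.02. The brightest, Npepps, a cytosolic aminopeptidase that cleaves enkephalins, differed by -0.21, -0.19 and -0.18 log2 in that order, and Ide, the insulin-degrading enzyme, by 0.17, -0.03 and -0.06.

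Downstream of the receptors, 26 genes of G proteins, channels, cyclases, kinases and arrestins were measured. Of these, 1 fell and 0 rose at 3 weeks, where 0.864% of all genes fell and 4.59% rose, and at an unadjusted p under 0.05 it was 4 lower and 1 higher. At 1 week and for A-CREB 0 were called by limma (0 at an unadjusted p under 0.05 in either). The 3 medians, at 3 weeks, at 1 week and for A-CREB, were -0.11, -0.12 and -0.11. Adcy1, a calcium-stimulated adenylyl cyclase of hippocampal neurons, fell to 6090 ± 1437 in VP16-CREB pools at 3 weeks, against 12053 ± 2569 in littermates (SD, n = 3 each, log2 -0.99, SE 0.21, adjusted p = 0.0157). It differed by -0.29 at 1 week and by -0.27 for A-CREB. Kcnj3 and Kcnj9, which encode G protein-gated potassium channel subunits, differed by -0.70 and -0.61 at 3 weeks and did not pass the test (adjusted p = 0.191 and 0.192). Gnai1, which encodes an inhibitory G protein subunit, differed by -0.22, -0.02 and 0.10 log2 at 3 weeks, at 1 week and for A-CREB. Of the 4 other genes named for opioids or opioid binding that were measured, Pomc, Ogfr, Ogfrl1 and Opcml, 0 were called in the 3 comparisons by limma, and 0 had an unadjusted p under 0.05. Pomc, the precursor of beta-endorphin, had 129 ± 33.2 against 132 ± 18.1 at 3 weeks and 152 ± 50.01 against 150 ± 43.6 at 1 week. In the A-CREB cohort Pomc had 249 ± 90.9 in A-CREB pools against 275 ± 264 in littermates.

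Regulators known to act on CREB or AP-1 sites or on opioid precursor genes changed in both directions at 3 weeks. Of 18 measured, 4 rose and 1 fell at 3 weeks (median -0.00), where 4.59% of all genes rose and 0.864% fell. From this list 0 were called at 1 week (3 higher and 1 lower at an unadjusted p under 0.05) or for A-CREB (0 at an unadjusted p under 0.05). Atf3, a stress-induced factor that binds CREB sites, had 454 ± 105 in VP16-CREB pools against 23.4 ± 19.7 in littermates at 3 weeks (SD, n = 3 each, log2 3.92, adjusted p = 0.000140). Fosb, a subunit of AP-1, had 387 ± 157 against 123 ± 27.4 (log2 1.53, adjusted p = 0.00175), and Fos, another AP-1 subunit, 4378 ± 902 against 1596 ± 402 (log2 1.46, adjusted p = 0.00471).

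Crem, whose products include repressors of CREB sites, had 796 ± 121 against 376 ± 49.2 (log2 1.06, adjusted p = 0.0140). Crtc1, a coactivator of CREB, fell to 1031 ± 145 in VP16-CREB pools, against 1677 ± 210.2 in littermates (log2 -0.70, adjusted p = 0.0467). At 1 week these genes had log2 differences of 2.25 for Atf3, 0.45 for Fosb, 1.24 for Fos, 0.80 for Crem and -0.56 for Crtc1, none of which passed the test. Kcnip3, which encodes the repressor DREAM that binds the Pdyn gene, had differences of 0.08 at 3 weeks, 0.01 at 1 week and -0.31 for A-CREB, and was not called.

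The genes whose pattern was most like that of Pdyn were chosen by Pearson correlation over the 16 arrays, on log2 values less the mean of the littermates of the same cohort. They were Dgkk, a diacylglycerol kinase (r = 0.978), Arhgdib (0.972), Gm13205 (0.971), Blvrb, biliverdin reductase B (0.961), H2-Ab1, a class II antigen presentation gene (0.960), Rhbdf1, an inactive rhomboid protein (0.960), Pmaip1, the cell death gene Noxa (0.959), and Hspb3, a small heat shock protein (0.958). Each of the 8 was higher in VP16-CREB pools at both times, with log2 differences of 0.99 for Rhbdf1 to 4.87 for H2-Ab1 at 3 weeks. In A-CREB pools Dgkk (-0.50), Gm13205 (-0.48) and Hspb3 (-0.39) were nearest to the -0.50 of Pdyn, and none was called. The 16 arrays share their cohorts and groups, so these values describe a common pattern and carry no test.

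**Figure D5:**
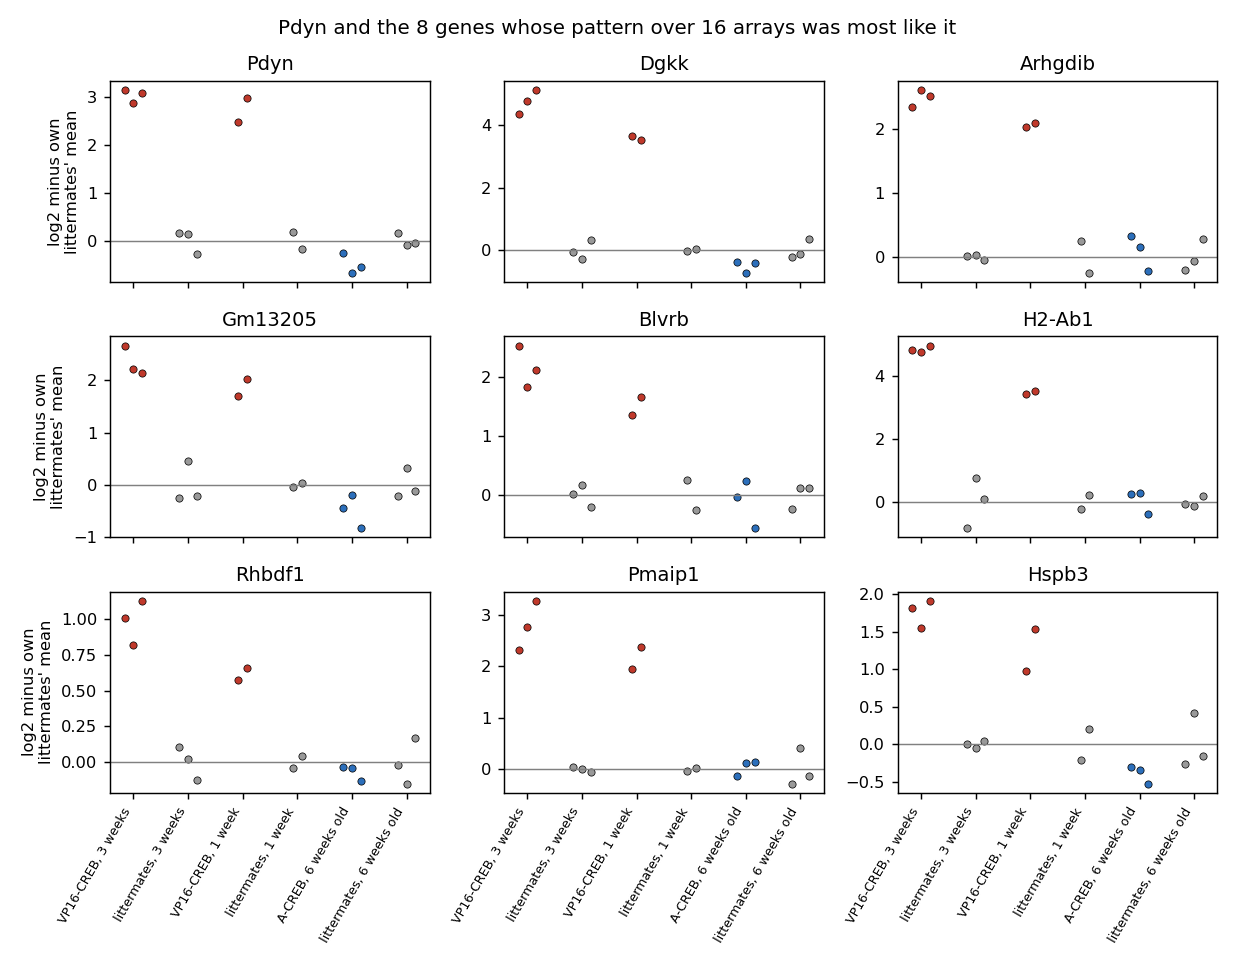
Log2 intensity less the mean of the own cohort's littermates in each of the 16 RNA pools by group, for Pdyn and the 8 genes most like it (r = 0.958 to 0.978 over 16 arrays). Points are pools, and each gene is high in the 5 VP16-CREB pools, while the A-CREB pools lie near or below 0.

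For Penk, the most alike by the same measure were Ablim3 (r = 0.908), Fibcd1 (0.904), C1ql2 (0.902), Tmem150c (0.892), Mast3 (0.888), Prr36 (0.886), Mcf2l (0.885) and Plekhg5 (0.884). Ablim3, which encodes an actin-binding protein, differed by -0.76 at 3 weeks, -0.38 at 1 week and -0.35 for A-CREB, and passed the test at 3 weeks (adjusted p = 0.0421). C1ql2, a synaptic gene on the list of dentate granule cell markers, differed by -1.78 at 3 weeks, -1.20 at 1 week and -1.11 for A-CREB, and passed the test at 3 weeks (adjusted p = 0.00397). Fibcd1, a marker of CA1 pyramidal cells, differed by -0.76, -0.68 and -0.57 and did not pass the test. All 8 had lower means in each transgenic group than in its littermates, as Penk did. They were chosen by their likeness to Penk over the same arrays, so this shared direction is no separate evidence and carries no test.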

How the data were processed

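Intensities were used as deposited. The authors obtained them from MAS5 (version not given in the sources used here), per the submitters' processing notes, on a linear intensity scale with a trimmed mean (2% off each end) of 500 on every array. MAS5 subtracts a mismatch signal, which makes low values noisy. The number of arrays limits the precision. After 64 control probe sets were removed, log2(intensity + 10) was taken and the 27044 of 45037 probe sets (60.0%) above the overall median on at least 2 of 16 arrays were kept. Of the 45037, 34945 had 1 gene symbol, 932 several and 9160 none. One limma 3.58.1 model in R 4.3.3 with data.table (version 1.17.8) held a coefficient per group (10 residual and 3.44 prior degrees of freedom, two-sided), with Benjamini-Hochberg adjustment over the 27044 and calls at an adjusted p under 0.05. Folds are of the intensity plus 10. The method was tested on simulated data. Lists were read at each gene's brightest probe set, and up to 4 called members per list, or the 2 brightest, were named, with the 8 genes most like Pdyn and Penk. Members and lists were chosen with earlier results of these data known. Labels do not say that pools of a group were prepared apart, so p-values measure the spread between pools. Promoters are from RefSeq. Figures used Python 3.11.15 and matplotlib 3.10.9. Alternatives were other pseudocounts, filters, scalings, variance models, array sets and weights, a replicate block and left-out pools.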

Additional observations from a re-analysis of the deposited data

Results flagged for a closer look

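For Pdyn, the 3-week VP16-CREB effect exceeded that of A-CREB by 3.53 log2 in a direct test (adjusted p = 5.07e-05). Pdyn was higher in 3 of 3 VP16-CREB pools and lower in 3 of 3 A-CREB pools than in every pool of their own littermates. Of the 27044 probe sets, 14.9% were higher without overlap at 3 weeks and 3.28% lower without overlap for A-CREB. The A-CREB difference by itself was -0.50 log2 and did not pass the test. The cohorts also differed in dox history and in array medians, whose part in the difference between the effects was not tested. Over the alternatives the difference between the effects ranged from 3.34 to 3.78.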

How the results depend on the processing

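Over 625 values of member probe sets under the alternative settings, 621 kept their side of the threshold, 1 lost its call, 3 gained one, 0 called values changed sign and 41 uncalled values did. With the fit held to the arrays compared, the count of member probe sets called was 2 at 3 weeks of VP16-CREB, where Oprl1 1422099_a_at (-0.67, adjusted p = 0.0350) joined Pdyn, and 0 at 1 week, where Pdyn kept 2.73 with an adjusted p of 0.146. Fewer arrays enter that fit, which called 1467 of the 27044 probe sets at 3 weeks and 0 at 1 week. With array weights the count at 3 weeks was 3, with Oprl1 1422099_a_at (-0.74) and Penk (-0.46) beside Pdyn, and the cause was not tested. That setting called 4137 of the 27044 probe sets at 3 weeks, against 1062 in the fit reported. The Pdyn difference ranged from 2.88 to 3.31 at 3 weeks, 2.48 to 2.97 at 1 week and -0.61 to -0.41 for A-CREB (adjusted p of at least 0.756). The labels tie no pools together by number. Deviations of pools of the same number correlated at -0.16, -0.23 and 0.22 at 3 weeks, at 0.15 at 1 week, and at -0.05, 0.41 and 0.27 for replicates 1, 2 and 3 of the A-CREB cohort, where replicates 2 and 3 each correlated best with their own number and replicate 1 did not, so no pairing was assumed. A replicate block left the adjusted p of Pdyn at 0.000239 at 3 weeks and 0.0134 at 1 week and changed no call of a member. Probe sets called over the whole array numbered 584 to 4137 at 3 weeks against 1062 in the fit reported, 0 to 70 at 1 week against 64, 0 to 4 for A-CREB against 0, 0 to 23 for the later minus the earlier effect against 1, and 114 to 404 for the VP16-CREB minus the A-CREB effect against 240. With each single pool left out, the variance of a 1-week group left with 1 pool was taken from the remaining groups. Low signal limits what these arrays show of Oprm1, Oprd1 and Oprk1.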
